A study of Mus musculus with 3 samples.

Results

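Motor neuron spots were taken from 2 spatial sections of mouse embryos, 1 labelled E11.5 (embryonic day) and 1 labelled E12.5, as the spots richest in the transcripts of 3 genes. Those genes were Slc18a3, the vesicular acetylcholine transporter, Slc10a4, a carrier-family protein of cholinergic vesicles, and Mnx1, a homeodomain factor of motor neurons. Each spot with at least 1000 UMIs (unique molecular identifiers, 1 for each captured transcript) was scored by the summed UMIs of the 3 genes over all its UMIs, and the top 4% of each section were kept. This gave 62 of 1561 spots at E11.5 and 41 of 1014 at E12.5, or 103 of 2575, in a series of 3935 spots. The series holds 3 sections of embryonic mouse axial skeleton, the last of them from E13.5 and not among those used to choose spots, and no genotype, strain, sex or treatment is given in the sources used here. A section was 10 µm thick and a spot is 55 µm across, so a spot can hold several cells of different types and parts of others. With 1 section at each age, the age, the embryo, the axial level of the cut and the library cannot be told apart. Spots of a section are not replicates, and the sections of different age are the only repeat of each contrast.

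Motor neurons of the spinal cord arise in the ventral neural tube from progenitors that carry Olig2 and Nkx6 factors under the influence of Sonic hedgehog. As they leave the cell cycle they switch on Mnx1, Isl1 and Lhx3, start to make and package acetylcholine, and send axons out of the cord to muscle or to autonomic ganglia. They are sorted along the body axis by Hox genes and, across the cord, into columns: the median column to axial muscle keeps Lhx3, the lateral column to limb muscle carries Foxp1, and preganglionic neurons to autonomic ganglia make nitric oxide synthase.

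The windows before the start sites of 4 genes are shown because 3 of them, Uts2b, Nyap2 and Lhx3, were among the 5 named genes with the largest excess in these spots, and the last, Slc18a3, helped to choose them. Each is the 250 bases before the start, 5′ to 3′ on the strand of the gene, from RefSeq on GRCm38.p6. The regions are chr16:27370240-27370489 on the minus strand for Uts2b, chr1:81076700-81076949 on the plus strand for Nyap2, chr2:26208250-26208499 on the minus strand for Lhx3 (the first of 2 starts listed) and chr14:32464851-32465100 on the minus strand for Slc18a3. Capitals mark TATAAA on the strand of the gene, the core of a TATA box, and TAAT on either strand (ATTA is its reverse complement), the core read by many homeodomain proteins.
Uts2b: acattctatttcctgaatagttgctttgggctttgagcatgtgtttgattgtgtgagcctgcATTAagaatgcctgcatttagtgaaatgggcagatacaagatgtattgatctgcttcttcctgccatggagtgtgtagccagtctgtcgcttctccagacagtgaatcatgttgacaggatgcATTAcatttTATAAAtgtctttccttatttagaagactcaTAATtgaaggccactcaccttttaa
Nyap2: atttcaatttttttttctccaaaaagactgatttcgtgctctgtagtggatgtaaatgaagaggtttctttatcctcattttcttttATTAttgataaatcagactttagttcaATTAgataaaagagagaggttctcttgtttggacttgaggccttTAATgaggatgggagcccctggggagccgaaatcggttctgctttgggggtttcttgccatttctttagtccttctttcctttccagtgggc
Lhx3: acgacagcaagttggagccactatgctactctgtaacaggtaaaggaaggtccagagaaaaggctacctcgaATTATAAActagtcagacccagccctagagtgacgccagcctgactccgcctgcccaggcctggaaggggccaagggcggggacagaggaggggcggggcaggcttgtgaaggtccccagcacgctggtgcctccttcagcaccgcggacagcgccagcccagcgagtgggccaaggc
Slc18a3: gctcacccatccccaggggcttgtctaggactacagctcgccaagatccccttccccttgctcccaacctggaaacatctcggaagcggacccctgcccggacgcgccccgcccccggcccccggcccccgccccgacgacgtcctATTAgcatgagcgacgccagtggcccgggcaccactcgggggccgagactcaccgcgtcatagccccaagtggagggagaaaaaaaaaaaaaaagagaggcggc
In Uts2b, which encodes the secreted peptide urotensin 2B, TATAAA began at -56 and TAAT or ATTA occurred 3 times. In Lhx3 TATAAA began at -176 and shared 2 bases with the ATTA before it. Nyap2, an adaptor of PI3-kinase signalling in neurons, held TAAT or ATTA 3 times and no TATAAA, and Slc18a3 held 1 ATTA and no TATAAA. Of the 15 named genes with the largest excess over other spots, 14 had a window, and 3 of these held TATAAA and 6 held TAAT or ATTA. Among all 32851 windows of this length in the table, 7.59% held TATAAA and 54.9% held TAAT or ATTA, and TATAAA was commonest between -30 and -20, with 403 matches against a median of 82 in the other bins of 10 bases. Slc18a3 (chr14:32462437-32464850) lies within the bounds of Chat (chr14:32408203-32465909), the acetylcholine-synthesising enzyme, so reads of one could be counted for the other. Chat itself had 1 UMI in the motor neuron spots of each section and 0 in all other spots.

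The values that chose the spots are given as a description only. The 3 genes together gave 3 to 46 UMIs a spot at E11.5 (median 15.5) and 1 to 42 at E12.5 (median 12). All 3 were seen in 48 and 31 spots, 2 of them in 14 and 8, and 1 alone in 0 and 2. At E11.5 the last spot inside had 2.278 UMIs of the 3 genes per 10000 (5 of 21950) and the first outside had 2.264 (6 of 26497). At E12.5 the last inside had 1.441 (1 of 6938) and the first outside 1.439 (2 of 13901), so that a single UMI was enough for the last member there. The score was 0 in 1189 of 1499 other spots at E11.5 and in 801 of 973 at E12.5.

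When spots were chosen again by only 2 of the 3 genes, the gene left out was still concentrated in them. Slc18a3 was 35.1-fold higher in the spots so chosen than elsewhere at E11.5 (95% interval 29.7 to 41.5) and 32.2-fold at E12.5 (25.1 to 41.5). Slc10a4 was 30.7-fold (26.3 to 35.8) and 22.9-fold higher (18.4 to 28.6), and Mnx1 37.1-fold (28.5 to 48.6) and 35.2-fold (26.2 to 47.7). These intervals cover counting error only. The 3 genes were chosen together with earlier results of these data known, so these folds describe the score and are no finding. Of the spots chosen by 2 genes, 85.4% to 93.5% were members under the full score. Clustering without the 3 genes gave 21 regions at E11.5 and 17 at E12.5. At E11.5, 54 of the 62 spots lay in 1 region of 61 spots, led by Uts2b, Arhgap36, Lhx3 and Ecel1 beside 2 of the scoring genes, and 6 lay in a region of 139 spots led by Otp and Hoxb genes. At E12.5, 35 of the 41 lay in 1 region of 54 spots that Uts2b and Ecel1 also led, and the other 6 were spread over 5 regions.

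The motor neuron spots were deep. Their totals were 2124508 UMIs at E11.5 and 1434824 at E12.5, with medians of 35780.5 UMIs a spot (7923 to 54937) and 36519 (6095 to 67290), against medians of 26729 and 24079 in other spots. They held medians of 7195 and 7605 genes, against 6127 and 6160. Ribosomal protein transcripts were a smaller share (14.3% and 13.5%, against 21.3% and 19.3%) and mitochondrial ones a larger share (1.80% and 1.35%, against 1.40% and 1.03%), and their part in the results was not tested. As in bulk tissue, a lower level in summed spots may be fewer cells of a type or less RNA in each cell, which cannot be told apart. All levels below are CPM, UMIs of a gene per 1000000 UMIs, summed over the spots of a group in 1 section, unless another unit is named.

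Genes of ventral motor neurons stood far above the rest of each section. Against all other spots, 3400 of 14757 genes were higher (23%) and 3586 lower (24.3%) by edgeR's quasi-likelihood test with section as a block and a Benjamini-Hochberg adjusted p under 0.05. The test has 1 residual degree of freedom and borrows 26.25 from the spread over all genes, so it measures how far 2 sections of different age differ in the contrast. Without the block 2158 genes were higher and 1862 lower. With at least 2-fold in both sections as well, 1604 genes were higher (10.9%) and 1562 lower. The median log2 fold change over all genes tested was -0.06.

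Uts2b had the largest fold by the rule for named genes. It stood at 119 at E11.5 and 171 at E12.5, against 2.96 and 2.87 in other spots (log2 fold change 5.55 ± 0.18, SE, edgeR adjusted p = 1.41e-19). It was seen in 43 of 62 and 29 of 41 motor neuron spots and in 88 of 1499 and 53 of 973 others. Its relative Uts2, urotensin 2, a peptide of motor neurons, was rarer, at 9.88 and 23.0 against 0.0947 and 0.374 (log2 6.16 ± 0.54, adjusted p = 1.67e-10). Nyap2 stood at 69.7 and 78.8 against 1.66 and 1.62 (log2 5.44 ± 0.23), and Rasgef1c, an exchange factor of Ras-like proteins, at 89.4 and 66.9 against 2.01 and 2.29 (log2 5.17 ± 0.22). Ecel1, a membrane peptidase-family protein that motor nerves need to branch in muscle, was the most abundant of the named genes, at 246 in both sections against 8.64 and 10.5 (log2 4.66 ± 0.13). It was seen in 59 and 36 of the motor neuron spots. The next named genes were Nwd2 (log2 4.32 ± 0.24), Arhgap36 (4.14 ± 0.30), an antagonist of protein kinase A that feeds the hedgehog pathway, Megf11 (4.06 ± 0.25), an adhesion protein that spaces neurons, and Hpca (4.03 ± 0.25), the calcium sensor hippocalcin. Scg2 (3.63 ± 0.34), a secretogranin of dense-core vesicles, Tmem130 (3.61 ± 0.19) and Cplx1 (3.61 ± 0.20), a complexin of vesicle release, closed the list. All 15 named genes were over 7-fold higher in each section taken alone.

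**Figure D1:**
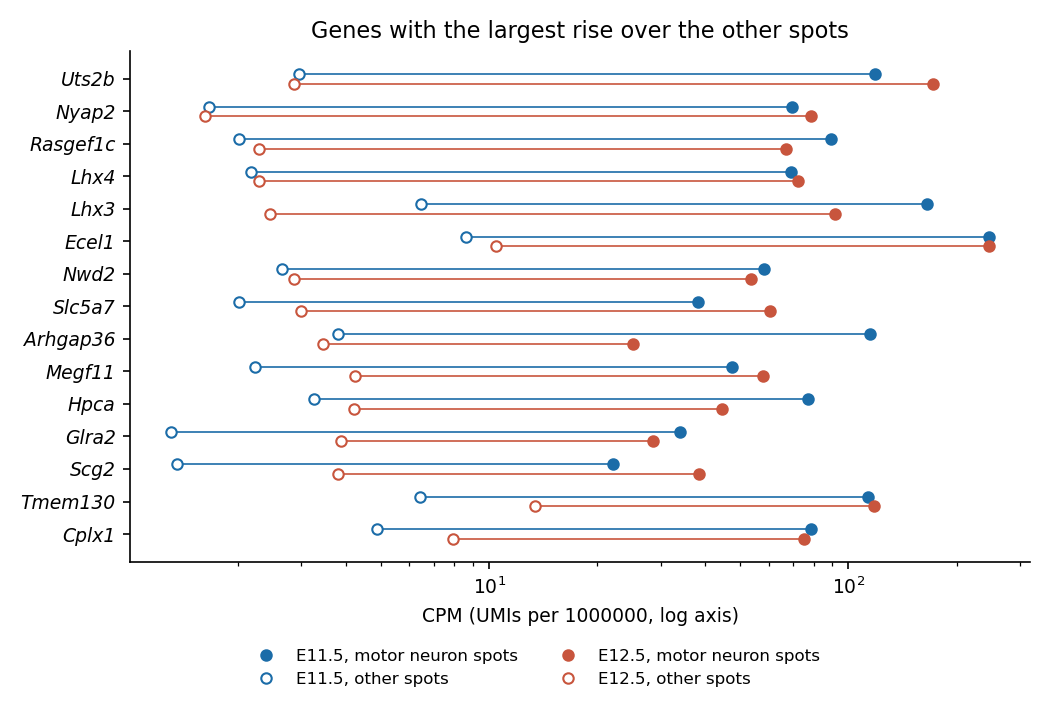
CPM (log axis) of the 15 named genes with the largest excess, in motor neuron spots (filled) and all other spots (open) of the E11.5 and E12.5 sections. The filled and open points of a gene do not overlap for any of the 15, and Arhgap36 is the gene whose level differs most between the sections (115 and 25.1).

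Transcription factors of motor neurons other than Mnx1 were next. Of 13 in the list 12 could be tested, 9 were higher, 1 was lower and the median log2 fold change was 1.79. Lhx3, the LIM-homeodomain partner of Isl1 in newborn motor neurons, stood at 165 and 92.0 against 6.46 and 2.45 (log2 4.84 ± 0.18, adjusted p = 2.09e-18). Lhx4, its close relative, stood at 69.2 and 72.5 against 2.18 and 2.29 (4.95 ± 0.22). Isl1 was less steep, at 142 and 132 against 36.4 and 41.1 (1.80 ± 0.13, adjusted p = 4.88e-12), and Isl2 stood at 115 and 94.1 against 19.8 and 15.7 (2.53 ± 0.15). Both Isl genes are also made by sensory neurons, and against ganglion-scored spots, described below, both were lower. Onecut2 (3.09 ± 0.19), Onecut3 (4.51 ± 0.55), Nkx6-1 (1.77 ± 0.19), Neurod1 (0.74 ± 0.23) and Lmo4 (0.49 ± 0.12) were also higher, while Onecut1 had 0 UMIs in the motor neuron spots, which allows up to 1.41 at E11.5 and 2.09 at E12.5 (3 UMIs). Ebf2 was lower, at 3.77 and 11.2 against 12.45 and 42.8 (-1.89 ± 0.28). Neurog2, which drives neurogenesis in the progenitors, stood at 7.53 and 3.48 against 10.8 and 6.48 (-0.68 ± 0.37, adjusted p = 0.140).

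From spot to spot these factors were uneven. Lhx3 ran from 0 to 7.49 UMIs per 10000 at E11.5 with a median of 1.09, and from 0 to 6.56 with a median of 0.594 at E12.5. Isl1 ran from 0 to 4.21 (median 1.23) and from 0 to 5.48 (median 0.566). UMIs of Isl1 were seen in 57 and 35 of the spots, of Isl2 in 51 and 31, of Lhx3 in 49 and 28 and of Lhx4 in 44 and 27. The ranges of members and other spots overlapped for all 4 genes, because each was at 0 in some members and seen in some other spots. After each spot was thinned to 10000 UMIs, Lhx3 was seen in 37 of 60 motor neuron spots (61.7%) at E11.5 and in 20 of 39 (51.3%) at E12.5, against 5.36% and 1.71% of other spots.

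**Figure D2:**
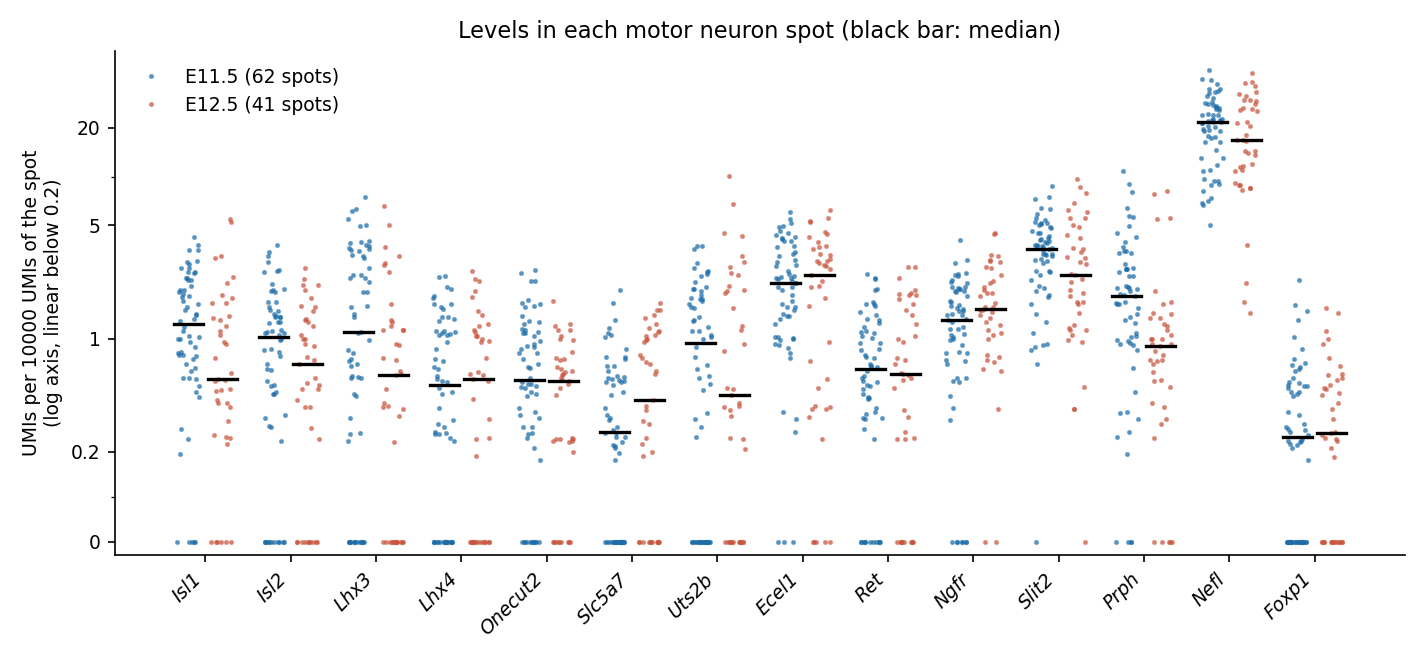
UMIs per 10000 in each of the 62 motor neuron spots at E11.5 and the 41 at E12.5 for genes of motor neuron identity, transmission, signalling and axons (axis linear below 0.2 and log above), with a black bar at the median. Nefl is seen in every spot, while Lhx3 is at 0 in 13 spots of each section.

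Genes of acetylcholine transmission were higher with them. Leaving out the genes that chose the spots, 10 of 11 could be tested, 9 were higher and 0 lower, and the median log2 fold change was 2.24. Slc5a7, which carries choline back into the terminal, stood at 38.1 and 60.6 against 2.01 and 2.99 (4.25 ± 0.26, adjusted p = 1.49e-13). Ache, which splits acetylcholine, stood at 29.7 and 41.1 against 7.65 and 9.56 (1.99 ± 0.22). Acly, which makes the acetyl-CoA used for acetylcholine and for lipids, stood at 543 and 520 against 218 and 209 (1.28 ± 0.09). Of the neuronal nicotinic receptor subunits, Chrna4 (2.28 ± 0.15), Chrnb2 (2.19 ± 0.21), Chrna3 (1.73 ± 0.22) and Chrna5 (2.33 ± 0.53) were higher, while Chrnb4 had 7 and 1 UMIs and a difference within error (0.32 ± 0.68). The choline-carrier relative Slc44a5 (2.39 ± 0.40) was also higher. Slc5a7 was seen in 41 of 62 and 29 of 41 motor neuron spots.

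The general neuronal programme was higher too. All 20 genes of the neuronal cytoskeleton list were higher (median log2 2.58) and so were 25 of 26 genes of RNA binding and synapses (median 2.35) and 19 of 24 ion channel genes (median 2.31). Nefl, the light neurofilament subunit, stood at 2177 and 1965 against 184 and 200 (3.40 ± 0.09, adjusted p = 1.82e-20). It was present in all 103 spots, with 5.05 to 45.8 UMIs per 10000 at E11.5 (median 21.8) and 1.44 to 43.5 at E12.5 (median 16.8). Nefm stood at 1748 and 1747 against 163 and 192 (3.28 ± 0.09), and Gap43, a protein of growing axons, at 1362 and 1301 against 146 and 168 (3.06 ± 0.10). Prph, the peripherin of axons that leave the central nervous system, stood at 213 and 160 against 20.01 and 53.3 (2.50 ± 0.22). Heavy neurofilament Nefh, a mark of mature large axons, was still scarce at 6.59 and 19.5 but higher than elsewhere (3.32 ± 0.46). Among channels, sodium channel subunits Scn3b (3.31 ± 0.19) and Scn2a (2.65 ± 0.29), the AMPA receptor subunit Gria4 (3.04 ± 0.27), the glycine receptor subunit Glra2 (3.77 ± 0.37) and the calcium channel Cacna1b (2.80 ± 0.19) were higher. Kcna1 and Glra1, of mature neurons, had 0 UMIs in the motor neuron spots of both sections.

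Receptors by which motor neurons read survival factors were partly higher. Of 13 receptors 9 were higher and 0 lower (median log2 0.67). Ret, the kinase that answers GDNF, stood at 81.4 and 92.7 against 7.88 and 9.23 (3.31 ± 0.17, adjusted p = 3.27e-15), and Met, the receptor of hepatocyte growth factor, at 57.4 and 41.8 against 5.40 and 6.98 (3.004 ± 0.23). Ngfr, the p75 neurotrophin receptor, stood at 142 and 185 against 18.3 and 41.4 (2.53 ± 0.15). The GDNF-family co-receptors were smaller in excess, with Gfra2 at 1.38 ± 0.25 and Gfra1 at 0.67 ± 0.20, and Gfra3 did not pass (0.20 ± 0.34). Ntrk3 was higher (1.22 ± 0.23), Ntrk2 stood at 21.2 and 50.2 against 24.3 and 45.8 (-0.05 ± 0.18, adjusted p = 0.848), and of the cytokine receptors Cntfr (0.93 ± 0.14) and Il6st (0.51 ± 0.15) were higher while Lifr was not called (0.44 ± 0.20, adjusted p = 0.0739). Of 15 signals between nerve and muscle 6 were higher and 6 lower (median -0.21), beside 23% and 24.3% of all genes. Nrg1, neuregulin 1, which nerves present to Schwann cells and muscle, stood at 77.2 and 63.4 against 7.06 and 6.86 (3.31 ± 0.19), and Agrn, agrin, the organiser of the neuromuscular junction, at 260 and 311 against 172 and 211 (0.55 ± 0.10). The CGRP peptides Calcb (3.60 ± 0.62) and Calca (1.90 ± 0.43) and Nrg2 (2.16 ± 0.85) were higher at few UMIs. The lower ones included Gdf10 (-3.08 ± 0.29), Cxcl12 (-1.79 ± 0.13) and Dlk1 (-1.11 ± 0.11), which other tissues of the sections carried more of.

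Genes that steer axons were mixed. Of 23 guidance receptors 13 were higher and 6 lower (median log2 0.64), and of 18 ligands 6 were higher and 6 lower (median 0.02). Over all genes tested, 23% were higher and 24.3% lower. Among ligands Slit2, a repellent that motor neurons themselves make, stood at 363 and 327 against 41.9 and 63.3 (2.72 ± 0.13, adjusted p = 4.78e-16). It was seen in 61 of 62 and 40 of 41 motor neuron spots. Sema3c, a secreted semaphorin, stood at 120 and 85.7 against 26.7 and 40.4 (1.64 ± 0.17). Lower ligands included Sema5a (-1.75 ± 0.22), Efnb1 (-1.46 ± 0.19) and Ntn1 (-1.06 ± 0.22), the netrin of the floor plate. Among receptors Epha5 (2.58 ± 0.20), Unc5a (2.20 ± 0.33), Ephb1 (1.80 ± 0.20), Dcc (1.65 ± 0.16), Plxna3 (1.52 ± 0.13), Plxna4 (1.48 ± 0.22) and Nrp2 (1.09 ± 0.12) were higher. Epha4, which directs lateral column axons to the dorsal limb, was higher by 0.72 ± 0.17. Plxnd1 (-0.90 ± 0.16), Fgfr1 (-0.87 ± 0.14) and Robo3 (-0.63 ± 0.18), the receptor of axons that cross the midline, were lower. The call of Robo3 rests on the E11.5 section, with -0.99 there and -0.0050 at E12.5 alone. Of 10 axonal adhesion molecules 8 were higher (median 2.13), led by Dscam (3.06 ± 0.39) and L1cam (3.05 ± 0.13), and Alcam was lower (-1.04 ± 0.18), while Cntn2 was near the level elsewhere (-0.13 ± 0.15).

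**Figure D3:**
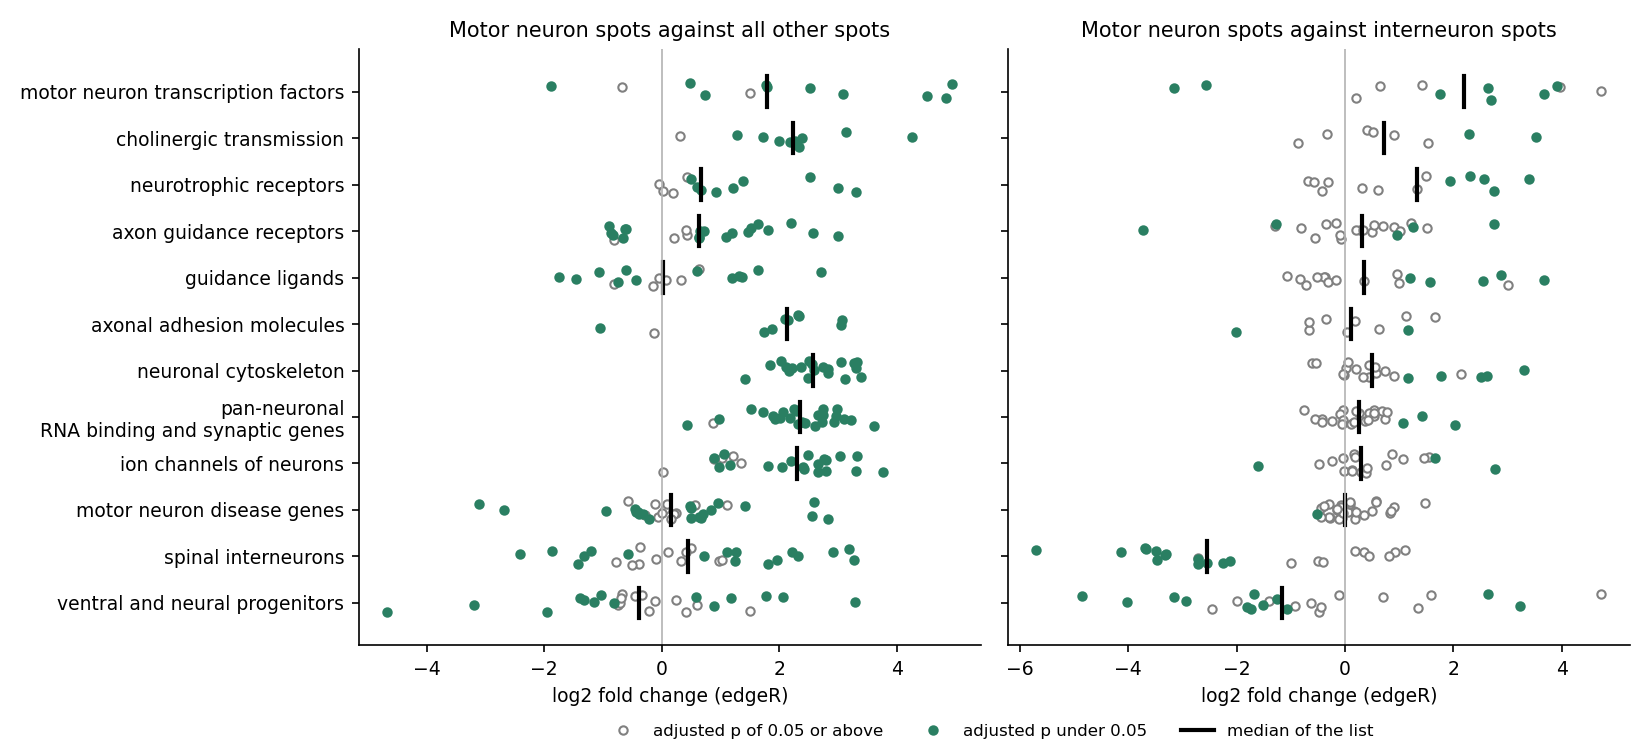
Log2 fold change of each tested gene of 12 lists in motor neuron spots against all other spots (left) and against interneuron spots (right), filled where the adjusted p is under 0.05, with a bar at the median of the list. The cytoskeleton list lies wholly right of 0 against all other spots (20 of 20 called) and mostly near 0 against interneuron spots (5 of 20 called).

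Genes whose human counterparts are mutated in motor neuron disease showed no common direction. Of 33 tested, 12 were higher and 9 lower, beside 23% and 24.3% of all genes, with a median log2 fold change of 0.16. Those higher included genes of axons and transport, among them Kif5a (2.83 ± 0.12), Stmn2 (2.60 ± 0.09), Unc13a (2.56 ± 0.19), C9orf72 (1.43 ± 0.19), Fig4 (0.95 ± 0.24), Dync1h1 (0.85 ± 0.09) and Dctn1 (0.70 ± 0.11). Those lower included the RNA-binding Tardbp (-0.39 ± 0.10), Hnrnpa1 (-0.31 ± 0.09) and Smn1 (-0.46 ± 0.18), the antioxidant enzyme Sod1 (-0.44 ± 0.11), and Pfn1 (-0.94 ± 0.09), which binds actin. Against interneuron spots, where 2.83% of all genes were higher and 2.34% lower, 1 of 28 passed, Hnrnpa2b1, which was lower (-0.51, adjusted p = 0.0172).

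Comparison with neighbouring kinds of neural spot separated what the motor neuron spots shared with other neurons. The top 4% of each section by Gad1, Gad2 and Lhx5, genes of inhibitory interneurons, gave 55 and 33 interneuron spots, and those by Sox1, Hes5 and Pax6 gave 56 and 31 progenitor spots. Spots of several comparison classes were left out, and no choosing gene is counted. Members that also scored in a comparison class stayed motor neuron spots. At E11.5 the interneuron and ganglion scores each also took 1 member, and at E12.5 the progenitor score took 1. Against interneuron spots 318 of 11221 genes were higher (2.83%) and 263 lower (2.34%), with a median log2 fold change of 0.01 over all genes. Without the block the counts were 104 and 83, and 30 of 71 named values lost their call, as did 18 of 69 with DESeq2. Of 8 meninges and fibroblast genes 3 were higher than in interneuron spots (Lum, Col3a1 and Col1a2, median log2 over the list 0.99) and of 6 cartilage genes 1 (Col2a1), and none was lower. Their part in the other differences was not tested.

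Some of the motor neuron transcription factors kept the motor neuron spots apart from interneuron spots. Of 12 tested, 5 were higher, 2 lower and 5 not called, beside 2.83% higher and 2.34% lower of all genes. Onecut2, Onecut3, Neurod1 and Lmo4, which were higher than in all other spots, were among those not called. Isl2 (115 and 94.1 against 9.85 and 2.46, log2 3.92, adjusted p = 1.40e-04), Lhx4 (3.67), Lhx3 (2.69), Nkx6-1 (2.64) and Isl1 (1.75) were higher, while Ebf2 (-2.56) and Neurog2 (-3.16) were lower. Uts2b again had the largest fold, at 119 and 171 against 1.64 and 2.46 (6.05 ± 0.58). Next came Rxrg, a retinoid receptor (4.66 ± 0.56), Chodl, chondrolectin, a marker of motor neurons (4.28 ± 0.73), Ntf3, neurotrophin 3 (4.26 ± 0.54), Arhgap36 (4.12 ± 0.68), Arhgdig (4.11 ± 0.48) and Cdh6, a cadherin of motor pools (3.93 ± 0.48). Of the cholinergic list 2 of 8 passed, Slc5a7 (3.53) and Ache (2.28). Only 5 of 20 cytoskeleton genes passed, all higher: Prph (3.31), Nefm (2.62), Nefl (2.52), Gap43 (1.78) and Mapt (1.17). Of the synaptic and RNA-binding genes 3 of 25 passed, namely Cplx1 (2.02), Stmn4 (1.41) and Syp (1.07), and of the channels Scn9a (2.76) and Gria4 (1.67) were higher and Cacna2d2 (-1.60) lower out of 19. Of 13 trophic receptors 5 were higher, namely Ret (3.39), Met (2.74), Ngfr (2.56), Lifr (2.31) and Il6st (1.95), and Nrg1 was higher by 2.67. Of the guidance ligands Sema3c (3.67), Slit3 (2.87), Slit2 (2.54), Sema3a (1.58) and Sema6a (1.202) were higher and none of 17 was lower.

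Spinal interneuron factors were lower or not called. Of 23 spinal interneuron factors 0 were higher and 13 lower than in interneuron spots, with a median log2 fold change of -2.55. Lbx1, of dorsal interneurons, stood at 3.77 and 7.67 against 79.6 and 109 (-4.13 ± 0.34), and Pax2, of inhibitory interneurons, at 1.88 and 6.27 against 34.5 and 58.9 (-3.68 ± 0.57). Robo3 stood at 57.4 and 43.2 against 1052 and 339 (-3.72 ± 0.63). Npy, a peptide of dorsal interneurons, stood at 10.8 and 14.6 against 42.7 and 1295 (-4.90 ± 0.81), which is the least even of these between the sections. Of transmitter genes that did not choose the spots, the vesicular GABA transporter Slc32a1 stood at 30.6 and 49.5 against 113 and 163 (-1.85), the glycine transporter Slc6a5 at 11.8 and 15.3 against 69.0 and 82.3 (-2.53), and the glutamate transporter Slc17a6 at 23.5 and 30.7 against 50.1 and 85.9 (-1.33). All 3 were nonetheless higher in motor neuron spots than in all other spots, as was Gad1, by 1.11 ± 0.23 for Slc17a6, 1.34 ± 0.34 for Slc6a5, 1.995 ± 0.21 for Slc32a1 and 2.11 ± 0.27 for Gad1. UMIs of Gad1 were found in 29 of 62 and 21 of 41 motor neuron spots, and Slc5a7 and Gad1 were found together in 18 and 16. A spot that holds several cells can carry both, and their source was not tested.

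Of 28 interneuron factors tested against all other spots, 11 were higher, 6 lower and 11 not called (median log2 0.46). The shares over all genes in that test were 23% higher and 24.3% lower. The higher ones included Sox14, of V2b interneurons (log2 3.20 ± 0.46), Sim1, of V3 interneurons (2.31 ± 0.46), and En1, of V1 interneurons (1.27 ± 0.24), and also Dmrt3, Bhlhe22, Lhx1 and Lhx5. The lower ones were Lhx2 (-2.41 ± 0.39), Lhx9 (-1.87 ± 0.40), Prrxl1, Barhl1, Barhl2 and Tlx3. At E12.5 alone Lhx9 (-0.58), Barhl2 (-0.30) and Barhl1 (-0.066) were closer to the other spots. When the top 8% of spots were taken, the direction turned for Lhx9 (0.06), Barhl2 (0.40), Tlx3 (0.07) and the receptor Robo3 (0.01).

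Against progenitor spots 1921 of 11221 genes were higher (17.1%) and 1528 lower (13.6%), with a median of 0.02. Of other tissues, 6 of 8 meninges and fibroblast genes (median log2 1.75) and 8 of 9 blood genes (median 0.69) were higher than in progenitor spots, and none was lower. Their part in the other differences was not tested. All 20 cytoskeleton genes and all 25 synaptic and RNA-binding genes tested were higher, with median log2 fold changes of 2.57 and 2.16. Uts2b (6.58 ± 0.68), Nyap2 (6.50 ± 0.62), Fxyd7, a regulator of the sodium pump (6.30 ± 0.93), Isl2 (6.11 ± 0.44), Ecel1 (6.11 ± 0.56) and Slc5a7 (5.94 ± 0.73) were among the named genes. Of 21 progenitor genes that did not choose spots 14 were lower and 0 higher. Sox2, which keeps neural progenitors undifferentiated, stood at 9.88 and 20.9 against 373 and 393 (-4.63 ± 0.25), and Sox3 at 2.35 and 2.79 against 98.0 and 42.6 (-4.72 ± 0.44). Msx3, of dorsal progenitors, had 6 and 0 UMIs against levels of 236 and 223, and Fgf15 had 2 and 1. Olig2 had 2 and 7 UMIs in the motor neuron spots, and Nkx2-2 (2.07 ± 0.36) and Nkx6-2 (3.29 ± 0.34) were higher there than in all other spots.

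The top 4% by a summed score of 3 sensory neuron genes gave 59 and 40 spots, but 19 and 4 of these held only 1 of these genes. At E11.5 they also held heart transcripts, with Myl2, a ventricular myosin light chain, at 1080 against 0.808 at E12.5. Against them 1205 of 11221 genes were higher (10.7%) and 1031 lower (9.19%), with a median of -0.02. Lhx3 was higher, at 165 and 92.0 against 1.10 and 2.42 (6.28 ± 0.56), with Uts2b (5.37 ± 0.49), Lhx4 (5.30 ± 0.70), Nkx6-2 (4.66 ± 0.67) and Ecel1 (4.66 ± 0.40). Isl1 and Isl2 were lower, and so were Prrxl1, of sensory neurons (-4.38 ± 0.53), and Lgi4, of Schwann cells (-4.49 ± 0.60). The heart genes Myl2, Tnnt2, Myl3 and Tnni3 were the 4 lowest by fold. Their deficit rests on the E11.5 section, where the ganglion-scored spots held them.

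Markers of most other tissues were lower in the motor neuron spots than in all other spots. Of the muscle list 9 of 9 tested were lower than in other spots, as were 6 of 6 heart, 9 of 9 blood, 6 of 6 macrophage and 7 of 7 sclerotome and cartilage genes, 7 of 8 of the meninges and fibroblast list and 6 of 7 endothelial genes. Summed over the list, muscle markers stood at 42.4 and 94.8 against 822 and 997, and cartilage markers at 189 and 319 against 741 and 1882. Myod1 and Myog were at 0 UMIs at E11.5 and Pax7 and Myf6 at E12.5. Blood transcripts reached 13605 and 6400 against 56567 and 14454, so that blood was never absent, with 11.4 to 489 UMIs per 10000 over the E11.5 spots. The 15 named genes with the largest deficit all had 0 UMIs in the motor neuron spots of both sections, where 3 UMIs correspond to 1.41 and 2.09. Among them were the muscle genes Myh8 (at least 8.53-fold lower at E12.5), Myoz2 (at least 3.76-fold and 3.36-fold), Hspb3 and Lmod3, the epithelial genes Esrp1, Cldn4 and Trp63, and Dlx5 (at least 5.50-fold and 2.01-fold), a homeobox gene of bone and branchial arches.

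Sensory and glial markers were not absent. The 11 sensory ganglion markers summed to 55.1 and 112 against 111 and 151 in other spots, and none was at 0. Of these 11, 3 were lower and 0 higher, beside 24.3% and 23% of all genes. The 9 neural crest and Schwann markers summed to 227 against 417 at E11.5 and to 681 against 516 at E12.5, where 1 spot reached 86.9 per 10000. Mbp was higher in the motor neuron spots (25.4 and 23.7 against 10.0 and 7.86, log2 1.42 ± 0.25), and Sox10, a defining marker, was lower (7.53 and 15.3 against 30.8 and 34.2, -1.61 ± 0.25). The part of these cells in the values for Prph, Isl1, Ngfr and Fabp7 was not tested.

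Genes of single motor columns shared no direction against other spots. Mecom, a gene of the median column, was at the level of other spots (32.0 and 33.5 against 29.95 and 28.6, log2 0.12 ± 0.18), and Foxp1, of the lateral column, stood at 34.8 and 33.5 against 38.8 and 48.2 (-0.36 ± 0.17, adjusted p = 0.0922). Aldh1a2, the retinoic acid enzyme of the lateral column and of mesenchyme, was lower (-0.53 ± 0.19). Foxp1 was seen in 39 and 27 motor neuron spots, with Lhx3 in 28 and 16 of them and without it in 11 and 11. Lhx3 was seen without Foxp1 in 21 and 12 spots, and neither in 2 and 2. Whether the 2 genes met more or less often than their separate detection would give was not tested. Nos1, nitric oxide synthase of preganglionic neurons, was higher than in other spots (7.53 and 13.2 against 0.947 and 1.83, log2 2.88 ± 0.46). At E12.5 it was uneven: 13 spots with no Lhx3 UMI had 41.6 of Nos1 (18 UMIs), and 28 spots with Lhx3 had 0.998 (1 UMI). The 18 UMIs came from 5 of the 13 spots, and the other 8 had no Nos1 UMI. The same 13 spots had less Hoxd10 (20.8 against 114) and more Hoxc6 (74.0 against 23.9) and Hoxc9 (157 against 87.8). They also had less of Slc18a3 (94.8 against 164) and Mnx1 (55.5 against 130), which chose the spots, and of Isl1 (83.2 against 153), Uts2b (80.9 against 211) and Pou3f1 (25.4 against 102). All 13 ranked 20th or lower of 41 by the score, and the part of this rank in the split was not tested. At E11.5 the split by Lhx3 gave Nos1 at 13.5 without and 5.95 with, on 6 and 10 UMIs. These splits were made on single genes in single sections and have no test.

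Motor pool genes, which mark the neurons of single muscles, were higher for 7 of 16 and lower for 2. Beside them, 23% of all genes were higher than in other spots and 24.3% lower. Pou3f1 (65.9 and 78.8 against 14.96 and 7.11, log2 2.70 ± 0.22), Pcdh10 (2.27 ± 0.20) and Cdh6 (1.43 ± 0.18) were among the higher ones. Etv4, which marks pools of limb muscles, was lower (3.77 and 9.06 against 12.7 and 15.1, -1.24 ± 0.34), and Etv1 stood at 2.82 and 11.8 against 9.26 and 10.4 (-0.62 ± 0.39, adjusted p = 0.198). In the 5 E11.5 spots with no UMI of a Hox9 to Hox13 gene Hoxa5 stood at 359 against 124 in the other 57, Prph at 582 against 190 and Lhx3 at 303 against 157. Their median depth was 20039 UMIs against 36853, and the part of depth in the missing Hox9 UMIs was not tested. All 41 spots at E12.5 had UMIs of Hox9 to Hox13 genes.

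Hox genes differed most between the sections. Hox genes are numbered in 13 paralog groups, and higher numbers are used further towards the tail. In motor neuron spots paralogs 4 and 5 summed to 113 and 312 at E11.5 and to 60.6 and 104 at E12.5. Paralog 9 summed to 337 at E11.5 and 263 at E12.5. Paralog 10 stood at 24.0 (95% interval 17.9 to 31.6) and 195 (173 to 219), and paralog 11 at 0 UMIs, which allows up to 1.41, and 116 (99.4 to 135). The other spots of the sections differed too: paralog 11 summed to 4.38 and 27.6 in other spots, and paralog 10 to 28.4 and 161. Paralog 13 was 19.5 in E12.5 motor neuron spots against 1.995 in the others, all from Hoxc13 with 28 UMIs in 12 spots. At E11.5 paralogs 5 to 9 were above the other spots (312 against 110 for paralog 5, 337 against 109 for paralog 9), and at E12.5 below or near them (104 against 157, 263 against 305). A fold change over both sections averages these, and for Hoxc8, called higher (1.06 ± 0.32, adjusted p = 0.00826), the ratio was 5.47 at E11.5 and 0.762 at E12.5.

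**Figure D4:**
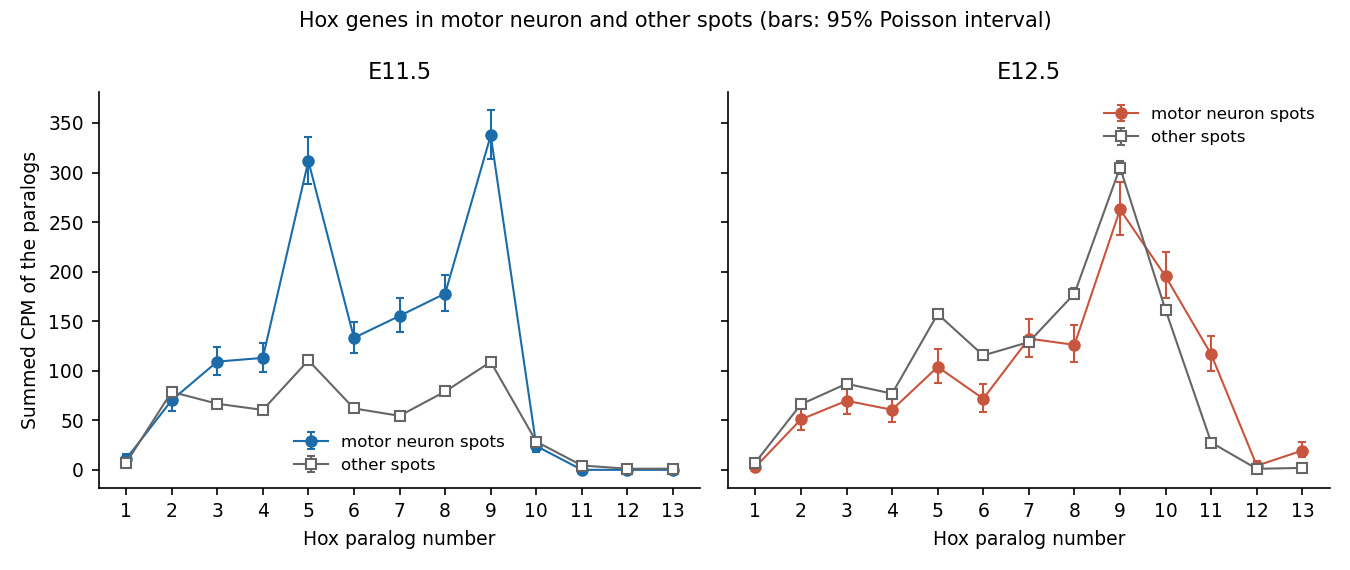
Summed CPM of the Hox genes of each paralog number in motor neuron spots and other spots of the E11.5 and E12.5 sections, with 95% Poisson intervals that cover counting error only. Paralogs 10 and 11 are near 0 to 28.4 at E11.5 and reach 195 and 116 in motor neuron spots at E12.5.

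Of 8479 genes with at least 50 UMIs over both sections, 194 were at least 2-fold higher at E12.5 than at E11.5 (2.29%) and 52 at least 2-fold lower (0.613%). There is 1 section an age, so these are ratios of 2 libraries with no test. No member of 8 motor neuron transcription factors, 7 cholinergic genes, 19 cytoskeleton genes, 25 synaptic and RNA-binding genes or 16 channels with enough UMIs passed 2-fold, against the 2.29% and 0.613% of all genes. Of 7 motor pool genes 2 were at least 2-fold higher, Gfra1 and Alcam (2.17-fold), and Nkx6-2 was lower. Of 12 trophic receptors Gfra1 and Ntrk2 (2.37-fold) were higher, of 7 nerve-muscle signals Uts2 (2.33-fold), of 20 guidance receptors Epha3 and of 13 guidance ligands Ntn1 (7.90-fold). Lhx3 came nearest among the transcription factors, at a ratio of 0.557, while Isl1 (0.927), Isl2 (0.816) and Lhx4 (1.05) were near 1. Of the Hox4 and Hox5 genes 4 of 5 were at least 2-fold lower, and of Hox10 to Hox13 genes 5 of 5 were higher. Markers of other tissues also differed between the ages in these spots. Of 4 sclerotome and cartilage genes 3 were at least 2-fold higher at E12.5 (Pax1, Sox9 and Twist1, median ratio over the list 2.82), of 8 meninges and fibroblast genes 4 (Col1a1, Col3a1, Dcn and Foxd1, median 1.99), and 4 of 7 blood genes were at least 2-fold lower (median 0.449). Their part in the ratios of the other genes was not tested.

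Hoxd10, with 0 and 123 UMIs, was at least 60.7-fold higher at E12.5 and was seen in 21 of 41 spots there. Hoxa10 was 4.89-fold higher (3.22 to 7.62), Spon1, a floor plate protein, 4.88-fold (3.36 to 7.26), Epha3, of median column axons, 3.18-fold (2.09 to 4.93), and Gfra1 3.17-fold (2.18 to 4.69). Fabp7, of radial glia and Schwann precursors, was 3.58-fold higher (3.16 to 4.07), but 234 of its 844 UMIs at E12.5 came from 1 spot. Other spots moved less for Gfra1 (16.9 to 29.9), and as far for Epha3 (23.4 to 77.7). Mt1, a metal-binding protein, was 7.74-fold lower at E12.5 (5.00 to 12.6), with 581 and 45.6 in other spots. Arhgap36 was 4.58-fold lower (3.22 to 6.69) with other spots at 3.79 and 3.45, and Nkx6-2 was 2.80-fold lower (1.70 to 4.82) with other spots at 4.33 and 1.12. Hoxc5 (4.13-fold), Hoxb5 (3.98-fold), Hoxb6 (2.66-fold) and Hotairm1, a transcript of the HoxA cluster (4.08-fold), were also lower.

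**Figure D5:**
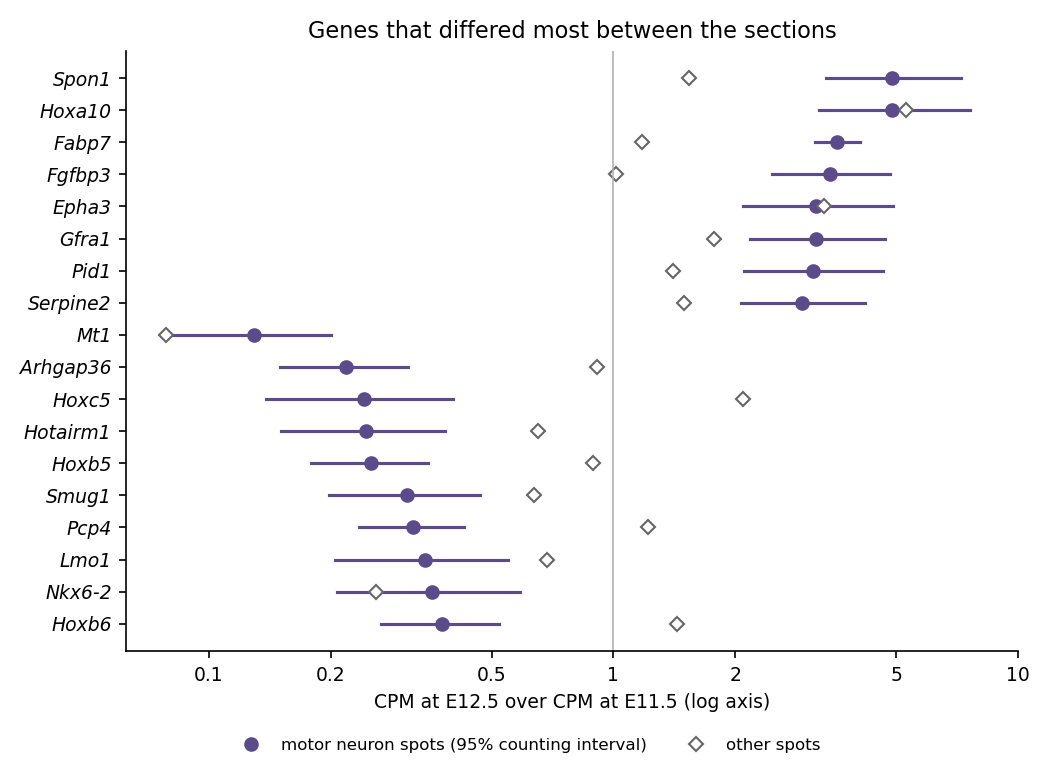
Ratio of E12.5 to E11.5 (log axis) of 18 named genes in motor neuron spots, with 95% counting intervals, and in other spots (diamonds). Hoxd10 is left out because it has 0 UMIs at E11.5. For Hoxa10, Epha3 and Nkx6-2 the diamond lies within the interval, for Mt1 it lies just below it, and for Arhgap36 it lies near 1 while the point is at 0.218.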

How the data were processed

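Spatial gene expression was measured in 3 mouse embryo sections, 1 an age. The deposited files hold raw UMI counts per gene and spot, and the file headers name Space Ranger 1.2.0 as the authors' software. The submitters' processing notes list STAR and mm10 without saying how they were used. Members and gene lists were chosen with earlier results of these data known. Counts of spots in a group were summed within each section and tested with edgeR 4.0.16 (limma 3.58.1, R 4.3.3), using TMM scaling, edgeR's filter on low counts and section as a block. The call is a Benjamini-Hochberg adjusted p under 0.05. The fit against other spots uses E11.5 and E12.5 only. Between ages, ratios of CPM with 95% counting intervals were taken for genes with at least 50 UMIs, with no test. Nothing says that the sections come from separate embryos, so p-values measure the spread between 2 sections, which may be technical.

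Named genes are the listed ones plus up to 15 in each direction against other spots, 8 against each class and 10 between ages: those of largest fold with at least 100 UMIs, past the test and in 1 direction in both sections, leaving out choosing, globin, mitochondrial, ribosomal, sex-linked, unnamed and repeated symbols. Of 32285 entries in the matrix, 32158 had their ID in the gene table, and 78 share a symbol with another. Spots under 1000 UMIs were dropped. The 434 barcodes that both sections list are array positions and not shared cells. No doublet caller was run on spots. On simulated counts the test recovered 53.7% of genes changed 2-fold and 100% of those changed 4-fold, against other spots, among 14903 genes. It also called 12 unchanged genes. The simulated counts had a fixed spread and no difference between sections. These rates therefore do not cover the error that 2 sections of different age add. Clustering used scanpy 1.11.5 and igraph 0.11.9, and DESeq2 1.42.0 was an alternative. Intervals and floors (3 UMIs) cover counting error only. Promoter windows come from RefSeq on GRCm38.p6. Results for a few genes are not reported here.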

Additional observations from a re-analysis of the deposited data

Results flagged for a closer look

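Some genes stood on opposite sides of the other spots in the E11.5 and E12.5 sections. The difference between sections was not tested, since each age has 1 section. The ratio of motor neuron spots to other spots at E11.5 and at E12.5 was 0.519 and 2.89 for Chchd10, a mitochondrial protein, 0.489 and 1.49 for Fabp7, 0.683 and 2.66 for Tal1, of V2b interneurons and blood, and 0.472 and 1.496 for Spon1. Among Hox genes it went from above 1 to below 1 for Hoxa3 (1.78 and 0.657), Hoxc4 (2.25 and 0.715), Hoxc5 (2.16 and 0.250), Hoxb6 (2.12 and 0.557), Hoxc6 (2.21 and 0.690), Hoxb8 (1.70 and 0.567), Hoxc8 (5.47 and 0.762) and Hoxb9 (1.30 and 0.334). It went the other way for Hoxd10 (0 and 2.24) and Hoxd11 (0 and 3.85).

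In the E13.5 section the same score chose 54 spots of another kind. They held 209 CPM of Dbh, the noradrenaline-making enzyme, and 145 of Hand2, both genes of sympathetic neurons, against 8.31 and 6.93 in the other E13.5 spots. Lhx3 had 0 UMIs and Isl2 had 1, and 34 of the 54 spots held only 1 of the 3 scoring genes.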

How the results depend on the processing

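With DESeq2, 2264 genes were higher and 1962 lower than in other spots, 1108 and 847 than in progenitor spots, 130 and 137 than in interneuron spots and 537 and 363 than in ganglion-scored spots. With no replicate block the counts were 2158 and 1862 against other spots, 104 and 83 against interneuron spots and 606 and 415 against ganglion-scored spots. The section is the pair here, and 42 of 147 named values against other spots and 30 of 71 against interneuron spots lost their call without it, as did 35 of 146 and 18 of 69 with DESeq2. With the E13.5 section added, whose spots by this score are of another kind, 854 were higher and 338 lower, and 81 of 143 named values lost their call. No filter on low counts gave 597 and 442 against interneuron spots and moved the median over all genes against other spots from -0.06 to -0.42. The top 8% gave 635 and 377 against ganglion-scored spots.

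Between ages, 194 higher genes became 545 with at least 20 UMIs, 88 in the top 2% of spots, 34 in thinned spots and 80 relative to other spots. The 52 lower genes became 140 with at least 20 UMIs and 135 relative to other spots. The lower minimum, the top 2% and the thinning also change how many genes reach the minimum of UMIs. Shares were not taken for these settings, so their counts do not tell lost or gained differences from a changed pool of genes. Directions turned in the top 8% for Robo3 (0.0065), Lhx9 (0.057), Barhl2 (0.40) and Tlx3 (0.068). Tlx3 also turned with 10 sums in 1 fit (0.18) and with E13.5 added (0.069). Leaving out a section leaves no residual degrees of freedom, so those values have no test. Against other spots, 47 of 147 named values moved beyond their spread without the E11.5 section, among them Lhx9 (-0.58) and Barhl2 (-0.30), and 43 without E12.5. That spread is the standard deviation of the same 2 section values. The counts therefore show only which section the fit lies nearer to, and they do not measure stability. Values that turned ran from -1.87 to 0.038 for Sox3, -0.27 to 1.499 for Hoxa5, -0.11 to 1.70 for Hoxb5, -0.38 to 2.46 for Hoxc8 and -4.58 to 0.038 for Myl2. For Sox3 and Myl2 the positive value comes from the 0.5 UMI added to each sum, since the CPM of Sox3 at E12.5 was 2.79 against 3.03 and that of Myl2 0.697 against 0.998. The cause of the other changes was not tested. Members in the main region alone, chosen after seeing the data, gave 3546 and 3903 against other spots. With 1 section an age, depth does not replace replication: genes near 3 UMIs cannot be told from absent ones.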

Other observations

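Several RNAs without a gene name were as concentrated in the motor neuron spots as the named genes, and were picked after their values were seen. A730046J19Rik stood at 26.8 and 38.3 CPM against 0.545 and 0.665 in other spots (log2 5.68 ± 0.40), Gm2990 at 53.2 and 27.2 against 1.37 and 0.831 (5.14 ± 0.34) and Gm39244 at 55.5 and 57.1 against 1.37 and 2.08 (5.04 ± 0.27). Gm5868 (4.25 ± 0.26) and Gm16551 (3.63 ± 0.25) were also higher by edgeR's quasi-likelihood test.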
